A study of Mus musculus with 8 samples.

Results

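Retnlg, S100a8, S100a9, Csf3r, Cxcr2 and Csf3 are 6 genes of neutrophil biology that were taken by symbol from the array annotation, and all 6 were measured, each by 1 probe set, among 19505 genes with a symbol and 22206 probe sets in all. The set was selected on measured values of these mice, the low Retnlg of the exposed group, so the differences of its 6 genes are described here without a test. Expression was measured in whole uterus of 8 wildtype C57BL/6J mice at day 4.5 of pseudopregnancy, the state that follows mating to a vasectomized male in which ovarian hormones prepare the uterus although it holds no embryo. Each of 4 exposed mice inhaled e-cigarette aerosol made from propylene glycol and vegetable glycerin (55 to 45) with 24 mg/mL nicotine and no flavouring, for 3 hours a day, on 5 days a week over 4 weeks before mating and then daily up to collection. The 4 sham mice received room air and were otherwise mated and collected in the same way. There was no arm with aerosol free of nicotine, so nicotine and its carrier cannot be told apart. The comparison asks whether inhaling the aerosol changes the uterus at the stage when it would receive an embryo.

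Neutrophils are short-lived white cells made in the bone marrow. Their output and survival are driven by the cytokine G-CSF, the product of Csf3, through its receptor, the product of Csf3r, and CXCR2 is the chemokine receptor that draws them out of marrow and blood into tissue. S100A8 and S100A9 are calcium-binding proteins that form the heterodimer calprotectin, which fills the neutrophil cytoplasm and withholds zinc and manganese from microbes, and RETNLG is a small secreted protein of the resistin family made by mouse marrow and neutrophils. In the mouse uterus, neutrophils enter under oestrogen and after mating and become few under progesterone. Csf3 itself is made mainly by stromal, epithelial and endothelial cells and macrophages, so it is a signal to neutrophils and not a transcript that marks them.

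Of the 6 members, 5 had an upstream sequence in the RefSeq table of build GRCm38.p6. Those of Retnlg, S100a8, S100a9 and Csf3r are shown because the results below turn on how these genes varied apart or together. Each run is the 250 bases before the annotated start, 5′ to 3′ on the gene's strand, with capitals marking 3 short motifs on either strand: GCAAT, a half-site of the C/EBP factors that drive granulocyte maturation, GAGGAA, a core bound by the myeloid factor PU.1, and TATAAA, the TATA box. Retnlg lies on the plus strand (chr16:48872358-48872607), S100a8 on the plus strand (chr3:90668821-90669070), S100a9 on the minus strand (chr3:90695722-90695971) and Csf3r on the plus strand (chr4:126024409-126024658).
Retnlg: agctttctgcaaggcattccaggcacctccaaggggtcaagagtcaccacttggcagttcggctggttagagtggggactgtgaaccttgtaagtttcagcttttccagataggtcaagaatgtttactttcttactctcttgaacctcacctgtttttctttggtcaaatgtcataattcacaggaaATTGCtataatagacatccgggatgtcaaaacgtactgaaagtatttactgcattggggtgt
S100a8: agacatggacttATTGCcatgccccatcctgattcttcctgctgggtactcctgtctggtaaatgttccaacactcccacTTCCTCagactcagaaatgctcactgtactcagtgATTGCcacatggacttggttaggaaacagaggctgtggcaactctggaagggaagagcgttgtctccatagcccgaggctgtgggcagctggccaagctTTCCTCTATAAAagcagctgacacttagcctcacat
S100a9: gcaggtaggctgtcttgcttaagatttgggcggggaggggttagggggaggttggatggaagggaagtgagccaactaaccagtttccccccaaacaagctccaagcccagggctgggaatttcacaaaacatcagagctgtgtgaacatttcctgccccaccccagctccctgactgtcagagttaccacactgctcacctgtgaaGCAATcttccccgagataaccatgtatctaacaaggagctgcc
Csf3r: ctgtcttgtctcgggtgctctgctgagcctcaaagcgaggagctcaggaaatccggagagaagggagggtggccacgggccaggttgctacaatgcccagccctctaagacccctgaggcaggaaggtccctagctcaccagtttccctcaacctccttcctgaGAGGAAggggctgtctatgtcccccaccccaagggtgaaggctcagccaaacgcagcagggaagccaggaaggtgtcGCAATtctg
The C/EBP half-site occurred once upstream of Retnlg, 62 bases before the start, once in S100a9 at 43 and once in Csf3r at 9, and 2 times in S100a8 at 238 and 135. The PU.1 core occurred 2 times in S100a8 (170 and 36 bases before the start) and once in Csf3r (86), and had 0 matches in Retnlg and S100a9. S100a8 alone of the 5 held the TATA box, 30 bases before its start and directly after a PU.1 core. Cxcr2, whose run is not shown, held 1 PU.1 core and 0 half-sites. Of 32851 upstream sequences of the same length, 23.1% held the half-site, 23.3% the PU.1 core and 12.4% the TATA box, so such matches are common and describe these letters only.

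Retnlg was the member with the lower values in exposed uteri. Its log2 expression was 8.04, 7.71, 7.52 and 7.76 in sham mice 1 to 4 and 6.86, 7.48, 6.92 and 6.28 in exposed mice 1 to 4. All 4 exposed values lay below all 4 sham values, with exposed mouse 2 just under sham mouse 3 by 0.04 and exposed mouse 4 far lowest. The mean was 7.76 ± 0.21 (SD, n = 4) in sham and 6.89 ± 0.49 (SD, n = 4) in exposed mice, a log2 difference, exposed minus sham, of -0.87 ± 0.22 (SE from limma), or 1.83-fold lower. The groups did not overlap in this direction for 1 of 6 members, against 1.35% of all probe sets. In the opposite direction they did so for 0 members and 1.38% of probe sets, and in either direction for 2.73% of probe sets. Of all 22206 probe sets, 23 had a difference at least as low as that of Retnlg. Of the 300 probe sets with all exposed values below all sham values, 2, Retnlg included, had a difference as low as its own. A gap between the groups at least as wide as its own was held by 137 of these 300. Since the set was chosen for the low Retnlg of these exposed mice, these counts only describe its values and are no test of them. With exposed mice 2 and 4 left out, which stood apart from the other 6 mice over the whole array, the Retnlg difference was -0.87. These 2 mice held the highest and the lowest exposed Retnlg value, so leaving out both nearly cancels and the unchanged value says little. Without exposed mouse 2 alone the difference was -1.07, and without exposed mouse 4 alone it was -0.67.

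**Figure D1:**
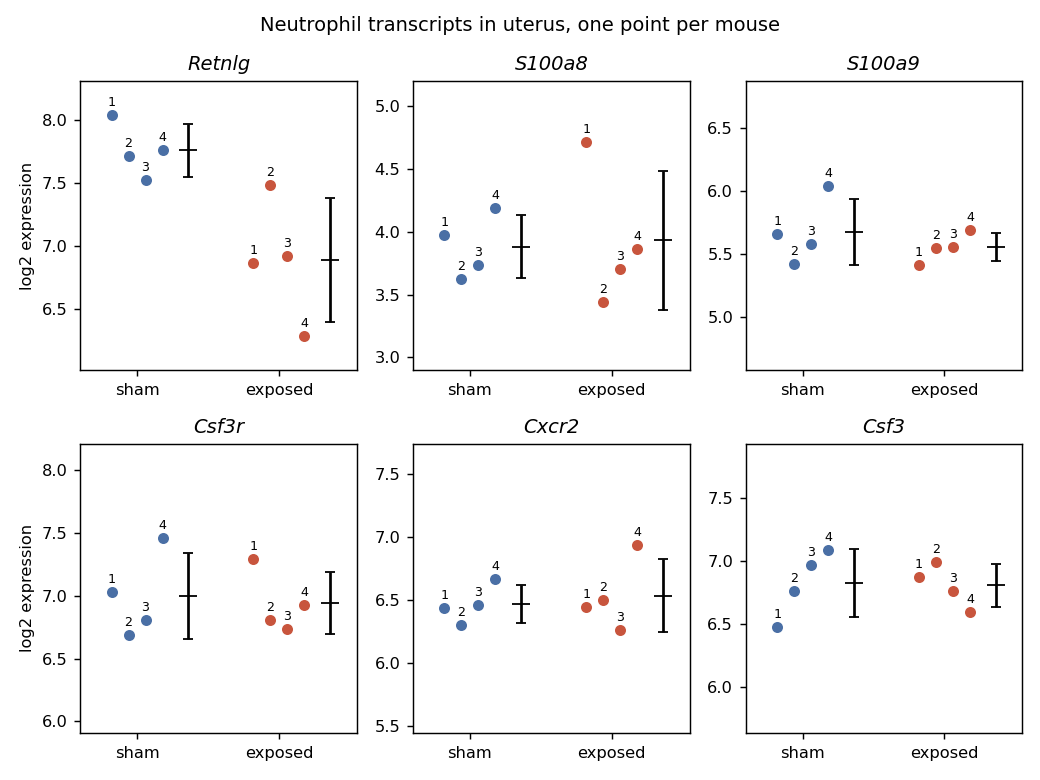
Log2 expression (y axis, spanning the same number of log2 units in each panel) of the 6 genes in sham (blue) and exposed (red) mice, with the mouse number above each point and the mean ± SD (n = 4) beside each group. The exposed Retnlg points, 6.28 to 7.48, lie under the sham points, 7.52 to 8.04, whereas the groups overlap in the other 5 panels.

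The calprotectin genes did not separate the groups. S100a8 was 3.97, 3.62, 3.73 and 4.19 in sham mice and 4.72, 3.44, 3.70 and 3.86 in exposed mice, so the highest and the lowest of the 8 values were both from exposed mice. Its difference was 0.05 ± 0.25 (SE). S100a9 was 5.66, 5.42, 5.58 and 6.04 in sham mice and 5.42, 5.55, 5.56 and 5.69 in exposed mice, with sham mouse 4 highest. Its difference was -0.12 ± 0.13 (SE), and the exposed values lay within the sham range save for exposed mouse 1, level with sham mouse 2. Because the 2 proteins work as one complex, the S100a9 value minus the S100a8 value was also taken within each mouse. The absolute size of this quantity depends on the probes, but it can be compared between mice. It ran from 1.69 to 1.85 in the 4 sham mice and was 1.85 and 1.83 in exposed mice 3 and 4, against 2.11 in exposed mouse 2 and 0.70 in exposed mouse 1. S100a8 was dim on all arrays, so these values may hold little transcript signal, as set out below.

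The receptors of the group also overlapped between sham and exposed mice. Csf3r, the G-CSF receptor, was 7.03, 6.69, 6.81 and 7.46 in sham and 7.29, 6.81, 6.74 and 6.93 in exposed mice (difference -0.06 ± 0.18, SE). Cxcr2 was 6.44, 6.31, 6.46 and 6.67 in sham and 6.45, 6.50, 6.26 and 6.94 in exposed mice (0.07 ± 0.14, SE). Exposed mouse 4, lowest in Retnlg, was highest in Cxcr2, and sham mouse 4 was highest in Csf3r. Csf3, the ligand, was 6.47, 6.77, 6.97 and 7.09 in sham and 6.88, 6.99, 6.76 and 6.60 in exposed mice, with all 4 exposed values inside the sham range and a difference of -0.02 ± 0.14 (SE). The differences of these 5 genes were each smaller than their own standard error, which does not show that the groups were alike.

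The arrays give no background level per probe set, so 1091 olfactory receptor genes, which have no known role in uterus, served as a rough guide to the signal of probe sets with little transcript. The median of their means over 8 mice was 4.36 and their 95th percentile 6.13, and probes differ in how well they bind, so the guide cannot settle whether a gene was expressed. S100a8, at a mean of 3.90 over the 8 mice, was above only 26.3% of olfactory receptors, and S100a9, at 5.61, above 89.6%. Retnlg was above 99.6%, Csf3r above 99.3%, Csf3 above 99.0% and Cxcr2 above 97.7%. Of 16 measured granule genes, 10 were above the 95th percentile, namely 8 of 12 genes of specific and gelatinase granules and 2 of 4 of azurophil granules. Those 10 include Elane (99.5%) and Prtn3 (99.0%), both azurophil granule proteases, and Camp (96.0%), as well as Ltf and Lcn2, which uterine epithelium also makes. Ngp (45.3%), Mmp8 (41.4%) and Mpo (85.4%) were among the 6 that lay at or under it. Tissue markers were clear of it, with 9 of 9 stroma and smooth muscle genes (Hoxa10, Esr1, Pgr and Myh11 among them) and 7 of 7 epithelial genes above the 95th percentile. Neutrophil genes were thus mixed against this guide, with S100a8 inside its range, and the 6 genes are called here by their names rather than read as a measure of neutrophils. In whole tissue, fewer cells of a type and less RNA per cell cannot be told apart.

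The groups overlapped in the other resistin genes. Mouse resistin genes encode small cysteine-rich secreted proteins, of which Retn, resistin itself, comes from fat cells, and Retnla and Retnlb come mainly from macrophages or epithelia. Retn was 5.27, 5.44, 5.52 and 5.76 in sham mice and 7.15, 7.75, 5.35 and 5.71 in exposed mice, high in exposed mice 1 and 2 alone (difference 0.99 ± 0.46, SE). The mean of 7 measured adipocyte markers was 6.50 and 6.75 in exposed mice 1 and 2. It was 5.65 and 5.89 in exposed mice 3 and 4 and 5.64 to 6.05 in sham mice. Fabp4, Adipoq, Cidec and Plin1 were highest in exposed mice 1 and 2, but Lep and Lpl lay inside the sham range there. Pck1 was lowest of all mice in exposed mouse 1 (5.88) and highest in exposed mouse 4 (6.90). Of the 7 markers, 4 lay at or under the 95th percentile of olfactory receptors. The part of fat cells in the Retn values was not tested. Retnla (-0.15 ± 0.28, SE) and Retnlb (0.13 ± 0.12, SE) were dim, at 4.17 and 3.77 in sham mice. By their means over 8 mice, Retn, Retnla and Retnlb were above 93.9%, 35.6% and 23.8% of olfactory receptors, all under the 95th percentile. Whether Retnlg varies with its family can therefore hardly be read from these probe sets.

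Across the array no gene could be called. Limma placed 0 of 22206 probe sets past a Benjamini-Hochberg adjusted p of 0.05 (0% of the array) and 1203 (5.42%) at an unadjusted p under 0.05, of which 647 (2.91%) were higher and 556 (2.5%) lower in exposed mice. The other neutrophil genes were described with 11 lists, which hold 90 measured genes besides the 6 members. Ly6g, Fpr1 and Fpr2, all neutrophil surface genes, were listed but had no probe set under these symbols in the annotation used. Of the 90, 0 passed the adjusted test, 34 had higher and 56 lower means, and the median difference was -0.0399, beside 0.00141 over all probe sets. At an unadjusted p under 0.05 stood 2 genes (2.22%), a share under that of the array: Cxcl12, the chemokine that keeps neutrophils in marrow, at 0.45 ± 0.14 (SE), and S100a3 at -0.24 ± 0.09 (SE). That count moved with single mice, being 9 without exposed mouse 3, 6 without exposed mouse 1, 4 without sham mouse 4 or exposed mouse 4, and 1 without sham mouse 3. Cxcl12 was 0.18 higher without exposed mice 2 and 4. Besides these 2 genes, Tnf, an inflammatory cytokine, was the only other of the 90 whose groups did not overlap (-0.27 ± 0.12, SE, lower after exposure). These 3 genes are 3.33% of the 90, near the 2.73% of the whole array. Tnf and S100a3 lay under the 95th percentile of olfactory receptors, above 55.2% and 80.1% of them, whereas Cxcl12 was above 100%. The lowest sham value of Tnf was only 0.01 above its highest exposed value.

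Granule genes, the most direct transcripts of granulocyte production in marrow, gave no common direction. Of 4 azurophil granule genes, 1 had a higher and 3 a lower mean: Mpo, myeloperoxidase, differed by 0.14 ± 0.09 (SE) and Elane, neutrophil elastase, by -0.15 ± 0.13 (SE). Of 12 specific and gelatinase granule genes, 5 were higher and 7 lower in mean. Camp, the cathelicidin precursor, differed by -0.04 ± 0.17 (SE), Ngp by 0.06 ± 0.12 (SE), and Itgam, the CD11b integrin chain, by -0.27 ± 0.26 (SE). Ltf and Lcn2, both granule proteins that oestrogen-driven uterine epithelium also secretes, varied far more between mice than between groups. Ltf was 8.56 ± 2.38 (SD, n = 4) in sham and 7.65 ± 1.18 (SD, n = 4) in exposed mice, and its difference of -0.92 became 0.12 without sham mouse 4. Lcn2 differed by 0.38 ± 1.10 (SE), and by 1.64 without sham mouse 4.

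Surface receptors stood at 6 higher and 6 lower of 12 measured, with Cxcr4, the receptor of CXCL12, at 0.34 ± 0.19 (SE). Of 13 other genes of mature neutrophils, 4 were higher and 9 lower in mean. Among them Hdc, histidine decarboxylase, which uterine epithelium makes too, was 11.05 ± 0.32 (SD, n = 4) in sham and 10.23 ± 1.19 (SD, n = 4) in exposed mice. It was 9.20 and 9.21 in exposed mice 2 and 4, and without them its difference was 0.21. The phagocyte NADPH oxidase (5 of 5 lower, Rac2 -0.30 ± 0.20, SE) and the granulocyte transcription factors (5 of 5 lower, Spi1, which encodes PU.1, -0.30 ± 0.26, SE) had 0 genes at an unadjusted p under 0.05. Macrophages express most of these genes, and the mean of 9 macrophage and monocyte markers was 7.33 in exposed mouse 2, against 7.86 to 8.28 in the other exposed mice and 7.87 to 8.25 in sham mice. Exposed mouse 2 was also lowest in Rac2 (6.38) and Spi1 (8.46), and the part of macrophages in these values was not tested.

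Of 6 CXCR2 ligand genes, 5 had slightly higher and 1 lower means. All but Cxcl3 and Cxcl15, 4 of the 6, lay at or under the 95th percentile of olfactory receptors. Cxcl1 differed by 0.0028 ± 0.15 (SE), Cxcl2 by 0.14 ± 0.15, Cxcl3 by 0.05 ± 0.08, Cxcl5 by 0.06 ± 0.12 and Ppbp, the platelet chemokine, by 0.02 ± 0.10. Cxcl15, an epithelial chemokine, was 9.30, 9.36, 9.37 and 8.77 in sham mice and 9.20, 9.0, 9.23 and 6.51 in exposed mice. Its difference of -0.72 ± 0.53 (SE) came from exposed mouse 4 and was -0.06 without it. Upstream of G-CSF, Il1b was -0.33 ± 0.16 (SE) and Csf2, which encodes GM-CSF, 0.08 ± 0.10. Il1b and Csf2 were above 68.9% and 80% of olfactory receptors, also under that percentile. Downstream of its receptor, 5 of 8 signalling genes had higher and 3 lower means, with Socs3, the feedback inhibitor that STAT3 induces, at -0.19 ± 0.13 (SE). Of 12 other S100 genes, 2 were higher and 10 lower in mean, with a median of -0.0592.

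**Figure D2:**
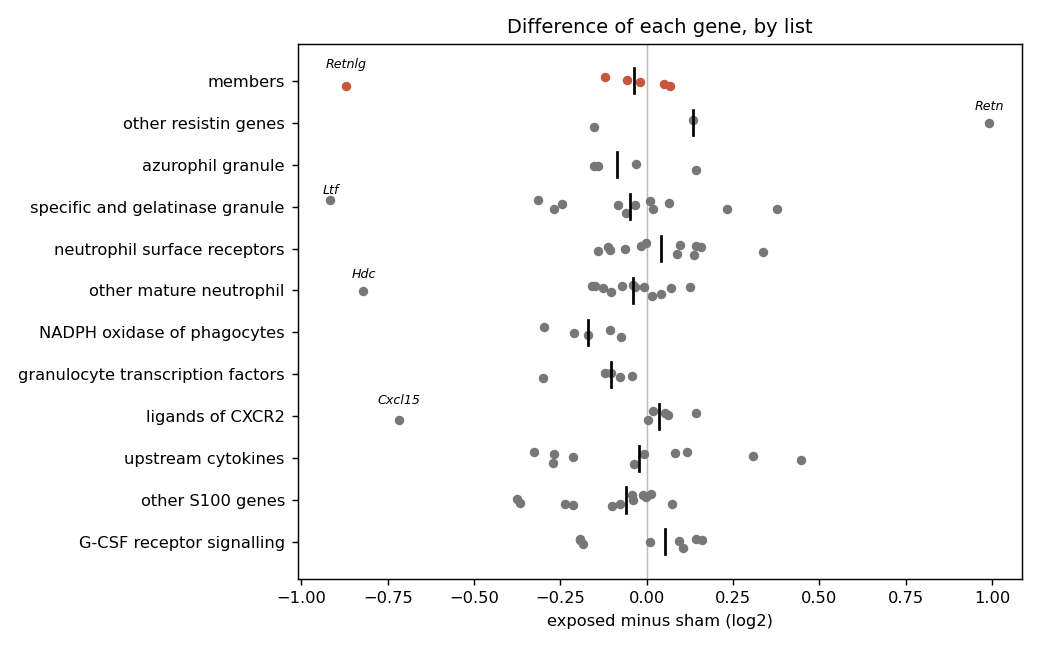
Difference in log2 expression, exposed minus sham (x axis), of each of the 6 members (red) and of the other measured genes of 11 lists (grey, 1 point a gene, members left out), with a black bar at the median of the points shown. Retnlg lies at -0.87 while the other 5 members lie between -0.12 and 0.07, and the labelled genes are those past 0.6 in size.

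The spread between mice of the same group did not enter the choice of the genes, and it was used to ask which of them varied together. Deviations from the group mean were correlated for the 15 pairs, with exact two-sided permutation of 1 gene within both groups over all arrangements. The pair of smallest p was S100a8 and Csf3r, with Pearson r = 0.84 (exact permutation p = 0.00521, 0.0781 after Benjamini-Hochberg adjustment over 15 pairs) and Spearman rho = 0.84 (exact permutation p = 0.0208, adjusted 0.312). Its r was 0.75 without exposed mouse 1 and sham mouse 4, the mice farthest from the median in S100a8, and 0.83 to 0.92 when each mouse was left out in turn. S100a9 and Cxcr2 followed with r = 0.66 (exact permutation p = 0.0278, adjusted 0.208; rho = 0.60, exact permutation p = 0.137, adjusted 0.85), and 0.66 without sham mice 4 and 2. By this test 0 of 15 pairs passed adjustment and 2 had an unadjusted p under 0.05.

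The calprotectin partners were not among those pairs. S100a8 and S100a9 had r = 0.14 (exact permutation p = 0.653, adjusted 0.943; rho = 0.17, exact permutation p = 0.701, adjusted 0.882). Without exposed mouse 1 and sham mouse 4 that r was 0.83, and without sham mouse 4 alone it was -0.30, so the value rests on these mice. For the ligand and its receptor, Csf3 and Csf3r, r was 0.28 (exact permutation p = 0.597, adjusted 0.943; rho = 0.24, exact permutation p = 0.653, adjusted 0.882), and -0.66 without sham mouse 4 and exposed mouse 1. Retnlg with the other 5 gave r from -0.52, with Cxcr2, to 0.20, with Csf3 (exact permutation p from 0.347 to 0.943, all adjusted to 0.943). Without exposed mice 2 and 4, the farthest from the median in Retnlg, r was -0.05 with Cxcr2 and -0.76 with Csf3. It was then 0.13 with S100a8, 0.19 with S100a9 and 0.20 with Csf3r. Both ends of the first range thus rest on these mice.

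**Figure D3:**
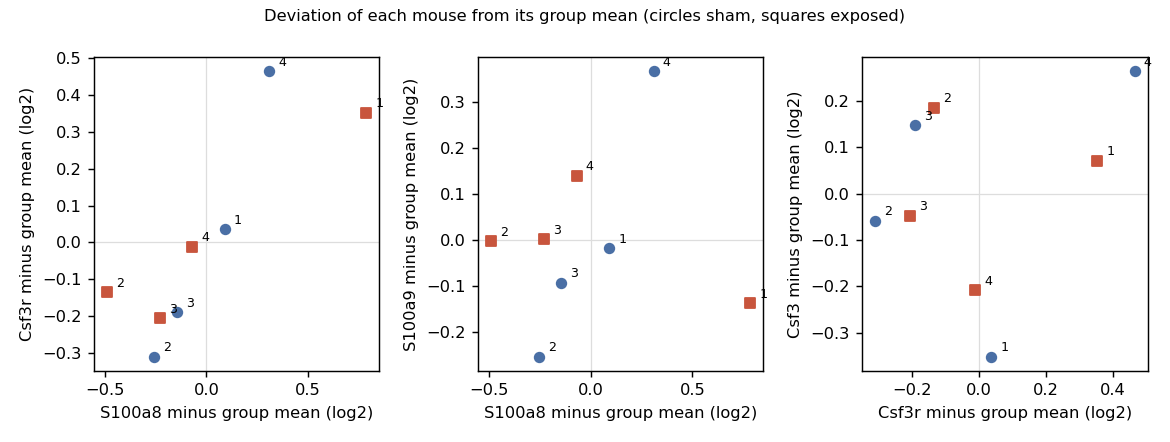
Deviation of each mouse from the mean of its group, in log2 units on both axes, for S100a8 against Csf3r, S100a8 against S100a9, and Csf3r against Csf3 (circles sham, squares exposed, mouse number beside each). S100a8 is dim, inside the range of olfactory receptors. In the first panel sham mouse 4 and exposed mouse 1 lie high on both axes (r = 0.84), and in the second exposed mouse 1 is high in S100a8 and low in S100a9 (r = 0.14).

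Over all 8 mice, the genes whose pattern was most like each member were ranked by Pearson r among 19504 other genes, as a description. The most alike genes named here leave out predicted genes (Gm and Rik names), olfactory and vomeronasal receptors and small RNAs. Ranks of the members count all 19504 genes. The 2 mice with the highest S100a8 and Csf3r, exposed mouse 1 and sham mouse 4, also had the highest means of macrophage and monocyte markers (8.28 and 8.25), and exposed mouse 2, lowest in S100a8, had the lowest (7.33). Csf3r was lowest in sham mouse 2 instead (6.69, with a marker mean of 7.95). Single markers did not all follow their mean. Exposed mouse 1 and sham mouse 4 were the highest in Csf1r, Adgre1, Lyz2, C1qa, C1qb and Cx3cr1. Mrc1 was highest in exposed mouse 3 (8.46), Ly6c2 in sham mouse 2 (8.75) and Ccr2 in exposed mouse 4 (8.89). The part of macrophages in these values was not tested. The genes most like S100a8 were Ada, adenosine deaminase (r = 0.98), Pik3cg, the leukocyte phosphoinositide kinase subunit (0.95), and Clec4a1, a myeloid lectin (0.94). Those most like Csf3r were Apoe, the apolipoprotein abundant in macrophages (0.96), Dmbt1 (0.93) and Bdkrb1 (0.92). Csf3r ranked 93 in likeness to S100a8, and S100a9 ranked 7558. For S100a9 they were Steap1 (0.97), Adam29 (0.94) and Bin2 (0.94), for Cxcr2 Vasn (0.98), Tmem170b (0.97) and Ankrd63 (0.97), and for Csf3 Clec4f (0.97), Thoc3 (0.97) and Clip4 (0.97).

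Outside the classes of genes left out above, the gene most like Retnlg was Ccr3, the eotaxin receptor of eosinophils (r = 0.97 over 8 mice). Dhx8, an RNA helicase (0.96), and Ptges2, a prostaglandin E synthase (0.95), followed. The difference between the groups enters these values. Ccr3 was 5.03, 4.65, 4.67 and 4.60 in sham mice and 4.19, 4.42, 4.23 and 3.79 in exposed mice. It shared with Retnlg its highest value in sham mouse 1, its lowest in exposed mouse 4 and its highest exposed value in mouse 2, and its groups did not overlap either (-0.58 ± 0.15, SE). Ccr3 was dim, above 54.0% of olfactory receptors. Epx, eosinophil peroxidase, above 87.4% of them, was 5.52 ± 0.24 (SD, n = 4) in sham and 5.52 ± 0.29 (SD, n = 4) in exposed mice. Alox15, a lipoxygenase and the one eosinophil marker above the 95th percentile, was 9.97, 10.63, 9.26 and 10.04 in sham mice and 8.95, 8.58, 11.04 and 8.71 in exposed mice (-0.66 ± 0.50, SE). Its values in exposed mice 1, 2 and 4 lay below all 4 sham values and that in exposed mouse 3 above them. Of 8 measured eosinophil markers, 3 had higher and 5 lower means, 7 lay at or under the 95th percentile of olfactory receptors, and their mean ran from 5.67 to 5.78 in sham and from 5.43 to 5.79 in exposed mice. Among the other 5 members, the likeness to Retnlg was highest for S100a9, at r = 0.19 and rank 6764, and lowest for Cxcr2, at r = -0.44 and rank 16327.

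**Figure D4:**
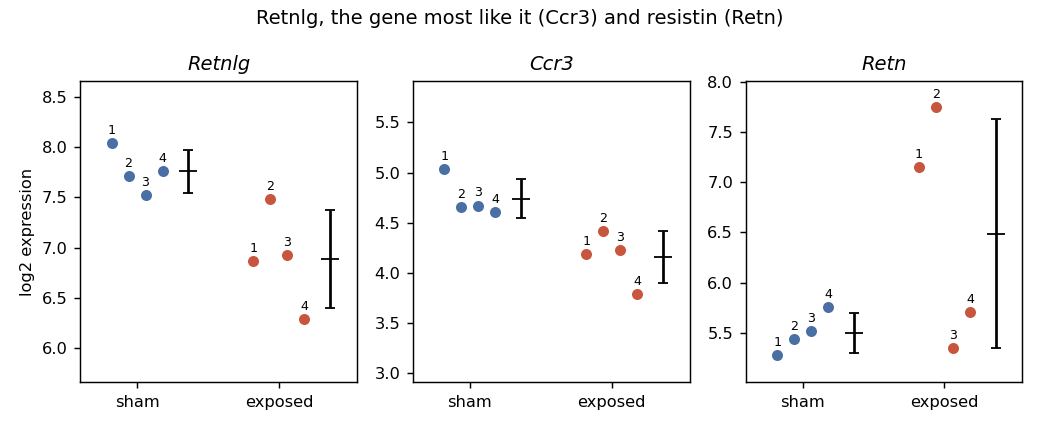
Log2 expression (y axis, 3 log2 units in each panel) of Retnlg, Ccr3 and Retn in sham (blue) and exposed (red) mice, with the mouse number above each point and the mean ± SD (n = 4) beside each group. Retnlg and Ccr3 are lower in all 4 exposed mice and lowest in exposed mouse 4, while Retn is high in exposed mice 1 and 2 (7.15 and 7.75). Ccr3 lies inside the range of olfactory receptors.

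How widely each gene varied was set against all probe sets. In exposed mice the SD of S100a8 (0.55) stood at the 96.6th percentile of all probe sets and that of Retnlg (0.49) at the 95.4th. In sham mice Csf3r had the highest of the 6, with an SD of 0.34 at the 95.1th percentile, and Retnlg an SD of 0.21 at the 79.7th. S100a9 varied little in exposed mice, with an SD of 0.11 at the 22.7th percentile, against 0.26 at the 89.0th in sham mice. Retnlg, S100a8 and Cxcr2 had the larger SD in exposed mice, and S100a9, Csf3r and Csf3 in sham mice.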

How the data were processed

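Total RNA from the uterus of each of 8 mice was labelled with biotin and hybridised to 1 Affymetrix array per mouse, per the labels' protocols. The authors deposited log2 values of 22206 probe sets in 1 table, whose range (2.75 to 13.6) shows that scale. Partek was used, per the submitters' processing notes, with its version and background correction not given in the sources used here. Sorted columns differ by at most 0.0198, so the deposited values were used as they were, and a change shared by all genes would be set to 0. Scan dates were not used here.

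Symbols came from the platform annotation (19572 probe sets with 1 symbol, 0 with several, 2634 without). The highest-mean probe set stood for a gene. Of 166 genes in the lists, 148 were measured. Upstream sequences are RefSeq's (GRCm38.p6), and the motifs were chosen after the values were seen. The array's build is not given, so probe sets have no coordinates here.

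Groups were compared with limma 3.58.1 in R 4.3.3 (lmFit, eBayes, no covariates, Benjamini-Hochberg over all probe sets, threshold 0.05), checked on simulated data. The p-values of the members themselves are not reported. Members and lists were chosen with earlier results of these data known. Named were the members, resistin genes, CXCR2 ligands, up to 3 genes of smallest p of each other list, the 3 genes most like each member, and 16 measured genes fixed by name (89 genes in all). Genes named outside this rule, such as Mmp8, Prtn3 and Csf2, were picked with their values known. The alternatives tried were median centring, quantile normalization, leaving out probe sets under the 25th or 50th percentile of mean, an eBayes trend, a replicate block, array weights, all probe sets of a gene, leaving out each mouse, and, added after seeing the data, leaving out exposed mice 2 and 4.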

Additional observations from a re-analysis of the deposited data

Results flagged for a closer look

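By Dixon's test for 4 values, 15 of 178 groups (89 named genes, sham and exposed) held 1 mouse far from the other 3. Chance gives about 1 in 20 groups if values are normally distributed and groups independent. These groups share the same mice, and many of the genes were named for their values, so the count is a description only. No member was among the flagged groups. In sham mouse 4, Cxcl15 was 8.77 (others 9.30 to 9.37), Pglyrp1 7.60 (others 7.09 to 7.16) and S100a10 10.1 (others 10.62 to 10.7). In sham mouse 1, Ccr3 was 5.03 (others 4.60 to 4.67) and Epx 5.16 (others 5.60 to 5.67), and in sham mouse 2 Cxcr4 was 6.42 (others 6.81 to 6.86). In exposed mouse 1, Retnla was 4.87 (others 3.71 to 3.79), Cxcl5 5.17 (others 4.74 to 4.78) and Camp 5.72 (others 6.37 to 6.44). In exposed mouse 2, Jak1 was 8.32 (others 8.75 to 8.78) and Myh11 11.18 (others 11.62 to 11.67). In exposed mouse 3, Mmp9 was 6.50 (others 6.24 to 6.27) and Alox15 11.04 (others 8.58 to 8.95). In exposed mouse 4, Cxcl15 was 6.51 (others 9.0 to 9.23) and Cxcl3 7.68 (others 7.77 to 7.79).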

How the results depend on the processing

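The 6 member differences moved by less than 1 SD in all 12 values with array weights or without exposed mice 2 and 4. That limit is wide and does not show stability. Without these 2 mice S100a8 rose to 0.33, and the sign changed for Cxcr2 (-0.12) and Csf3r (0.02). With array weights it changed for Csf3 (0.04). For Retnlg, leaving out both mice nearly cancels, as stated above. Differences also moved by less than 1 SD in all 48 values without 1 mouse, but leaving out 1 of 4 mice cannot move a difference by 1 SD. That result was therefore fixed in advance and says nothing on stability. Quantile normalization, median centring, the mean of all probe sets and the replicate block could hardly move the differences, since the columns already share a distribution, each member has 1 probe set and the design is balanced. Without 1 mouse the difference ran from -1.07 to -0.67 for Retnlg, -0.21 to 0.21 for S100a8, -0.20 to 0.0021 for S100a9, -0.17 to 0.10 for Csf3r, -0.07 to 0.16 for Cxcr2 and -0.14 to 0.07 for Csf3, so the sign of the last 5 is not settled. The count of neutrophil list genes at an unadjusted p under 0.05, 2 in the main fit, was 1 with either filter on low means and 1 to 9 without 1 mouse. The sample titles number the mice within each group and do not say whether equal numbers were paired. Deviations of same-numbered mice correlated at 0.08, -0.24, 0.09 and 0.08, which cannot settle whether those mice were handled together. With the replicate block the count of neutrophil list genes at an unadjusted p under 0.05 was 5. Filtering at the 50th percentile left 796 probe sets at an unadjusted p under 0.05, 410 of them higher. Without 1 mouse the number of such probe sets ran from 726 (sham mouse 2) to 2545 (exposed mouse 1), with 407 to 1207 higher and 319 to 1338 lower, and 0 to 1 passed adjustment. Probe sets whose groups do not overlap numbered 497 to 1136 lower and 503 to 1140 higher without 1 mouse, and 1504 and 1208 without exposed mice 2 and 4, where fewer mice make non-overlap easier. The sign of correlations within groups without 1 mouse was examined for only some of the 15 pairs. It changed for S100a8 and S100a9 (range -0.30 to 0.88, and -0.033 without sham mouse 2), S100a9 and Csf3r (-0.0855 to 0.98), Csf3r and Csf3 (-0.22 to 0.47) and Retnlg and Cxcr2 (-0.70 to 0.28). Leaving out sham mouse 4 changed the sign in the first 3 and leaving out exposed mouse 4 in the last. The sign held for S100a8 and Csf3r (0.83 to 0.92) and for S100a9 and Cxcr2 (0.61 to 0.81). That of the remaining pairs was not examined. The number of pairs past adjustment was 0 throughout, by the exact test, but without 1 mouse its smallest p is 0.00694, which for a single pair becomes 0.104 after adjustment over 15, so those 8 fits say nothing on stability. Apart from what filtering or leaving out mice does by construction, the cause was not tested. With 4 arrays a group and no background level, small changes in dim genes such as S100a8 cannot be resolved.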
